A study of Mus musculus with 8 samples.

Results

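Transcripts of the integrated stress response and of serine synthesis were examined in mouse mast cells raised in culture from bone marrow (BMMCs). The 10 genes were *Atf4*, *Ddit3*, *Asns*, *Chac1*, *Trib3*, *Sesn2*, *Psat1*, *Phgdh*, *Psph* and *Mthfd2*, taken by symbol from the 24059 gene symbols counted in each of 8 samples. All 10 were found, and 9 of them, all but *Chac1*, were among the 14934 genes that passed the filter on low counts. The cells came from C57BL/6 mice of 6 to 8 wk, were kept in IL-3 for at least 4 wk, and were then transfected with Cas9-gRNA ribonucleoproteins (RNPs) and cultured for 1 wk. In 4 samples the RNPs targeted *Zc3h12a*, the gene of the endoribonuclease Regnase-1, and in 4 samples they carried a scrambled guide that targets no gene, so that the controls went through the same transfection; the labels give the genotypes as Zc3h12a KO and Zc3h12a WT. Both groups were resting, unselected populations that can hold edited and unedited cells, not clones. The samples of each group are numbered 1 to 4. The cultures came from 4 mice, and samples of the same number were treated as a pair; neither the labels nor the methods state that a number marks a mouse or that each mouse gave cells for both RNPs.

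In the integrated stress response, kinases that sense amino acid shortage, endoplasmic reticulum stress, heme shortage or double-stranded RNA phosphorylate the translation initiation factor eIF2. Overall protein synthesis then falls, while the mRNA of the transcription factor ATF4 is translated more. ATF4 and its partners induce CHOP (encoded by *Ddit3*), amino acid synthesis and transport, tRNA charging, and the serine and one-carbon enzymes that supply glycine and nucleotide precursors. Because ATF4 is regulated largely at translation, the level of its mRNA is not a measure of its protein.

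Depth ranged from 19610240 to 33986762 counted reads among the Scrambled RNP libraries and from 23712029 to 28564062 among those of *Zc3h12a* RNP. On the first principal component, which held 65.7% of the variance, Scrambled RNP samples 2 and 4 lay farthest apart, at -121 and 74.7. *Zc3h12a* itself was at 24.9 to 39.3 CPM (the count scaled to the TMM-normalized library) after Scrambled RNP and 26.8 to 41.1 after *Zc3h12a* RNP, so its mRNA level did not separate the groups. The paper reported by Western blot that RNPs against *Zc3h12a* effectively depleted Regnase-1 protein in BMMCs. The counts used here hold no protein level. All 12 mast cell markers examined were at 1 CPM or more on average, with a summed level of 56310 to 65920 CPM in Scrambled RNP and 53460 to 56930 CPM in the *Zc3h12a* RNP group. Over all 8 samples the summed markers of macrophages and monocytes were at 9.14 to 11.8 CPM, of B cells at 0.602 to 2.71, of T cells at 0.600 to 5.57 (*Cd8a* at 0 in every sample), of neutrophils at 0.0634 to 0.333, and of erythroid cells at 1.26 to 3.93. The 4 basophil markers, which mast cells can share, summed to 453 to 554 CPM. In bulk RNA, fewer cells expressing a gene and less of its RNA per cell cannot be told apart.

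None of the members passed the test between RNPs, whereas most of them differed between replicate numbers and were highest in both samples of replicate 3. Between RNPs, 0 of the 9 tested members were called, where 0 of the 14934 genes tested (0%) were called higher and 0 (0%) lower. A call required a log2 fold change beyond 0.5 and an adjusted p at or under 0.05 by edgeR's quasi-likelihood F test in a model of replicate block and RNP. With the replicate block, DESeq2 and limma-trend also called 0 members. Of all genes, DESeq2 called 8 higher and 52 lower, and limma-trend called 0 higher and 1 lower. At an unadjusted p at or under 0.05 in edgeR, 1 member (*Asns*) was left, against 922 of all genes (6.17%), 317 of them higher (2.12%). The median log2 fold change of the 9 members was 0.17, beside 0.038 for all genes tested, and 7 members had a positive and 2 a negative value, where 57.8% of all genes were positive. This median was 0.057 without replicate 3, 0.11 without replicate 4 and 0.31 without replicate 2.

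**Figure D1:**
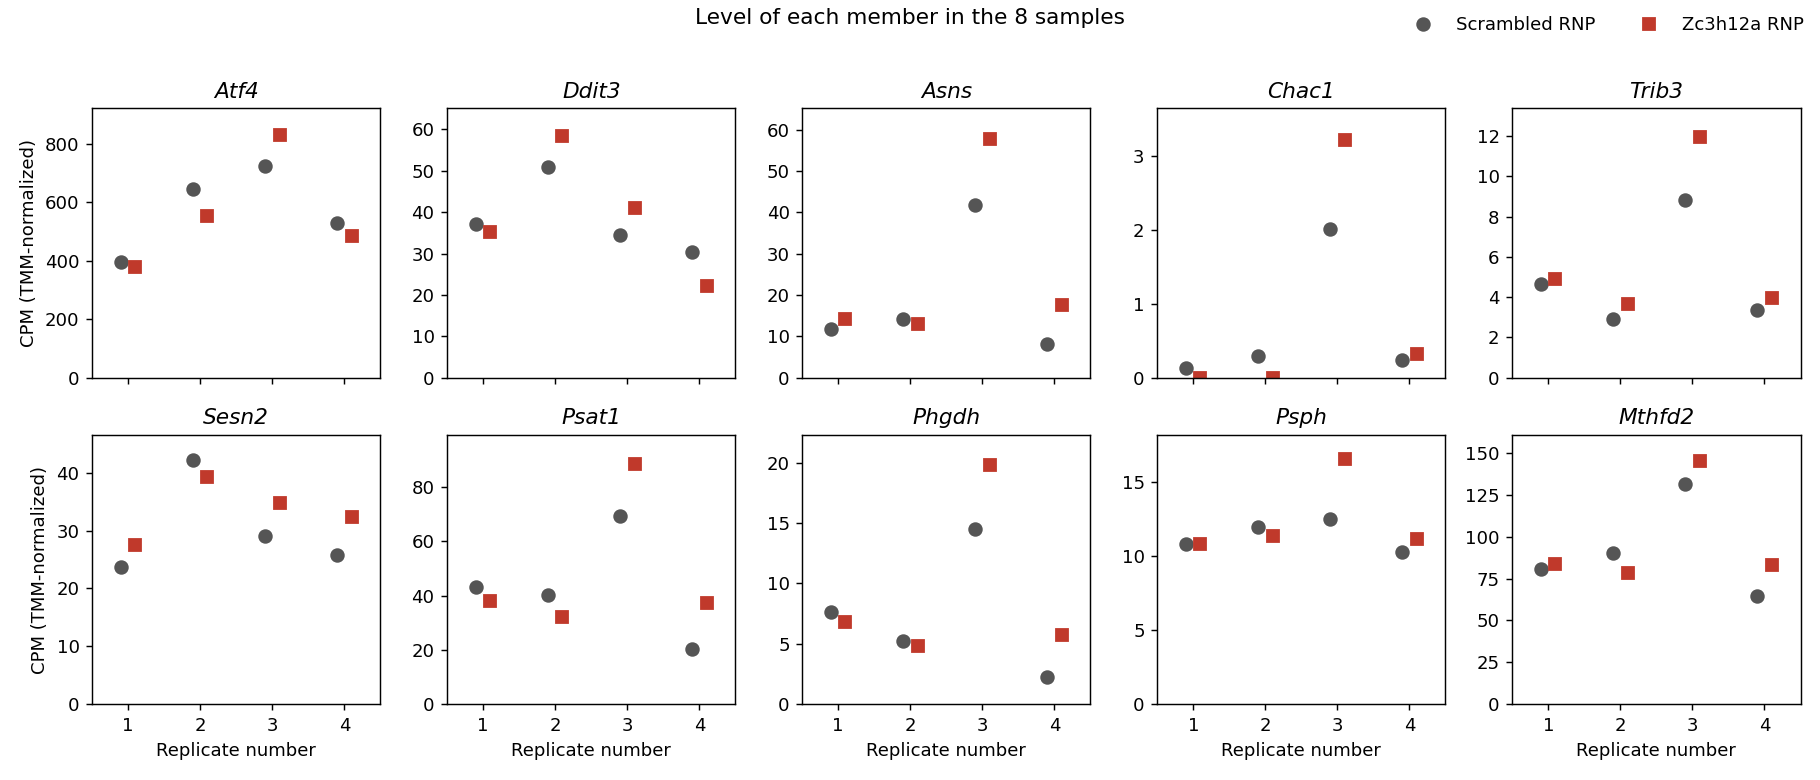
CPM of each of the 10 genes (vertical axis, linear and from 0) by replicate number (horizontal axis), with Scrambled RNP samples as grey circles and *Zc3h12a* RNP samples as red squares, 1 point per sample. Both samples of replicate 3 are the highest of the 8 for 8 genes, and for *Ddit3* and *Sesn2* both samples of replicate 2 are the highest.

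The second comparison asked whether a member's level differed between replicate numbers, whatever the RNP. It was added after the data were seen and used an F test over the replicate terms of the same edgeR fit. This test covers any difference among the 4 numbers and does not set replicate 3 against the others. By this test, 8 of 9 members differed at an adjusted p at or under 0.05, where 28% of all genes tested did. The exception was *Psph* (adjusted p = 0.181). In 7 of 9 members both replicate 3 samples lay above all 6 other samples, an arrangement found in 5.87% of all genes tested. The mean log2 CPM was highest in replicate 3 for the same 7 members, against 27.6% of all genes. The pattern rested on replicate 3: without it, 1 member, *Ddit3*, differed between the remaining numbers, beside 9.97% of all genes. Without replicate 1, 5 members differed (9.62% of all genes), and the calls of *Atf4*, *Sesn2* and *Mthfd2* were lost. On the first principal component the replicate 3 libraries were at 40.4 and 39.4, below Scrambled RNP sample 4 and above the other 5 samples. Their summed markers of all 7 cell types were within the range of the other 6 samples, but *Kit*, a mast cell marker and the receptor of stem cell factor, was at 2724 and 2432 CPM in replicate 3 and at 3449 to 3926 CPM in the others, 0.701 times their mean (adjusted p between replicate numbers = 0.0158, edgeR's F test). The mean of *Hdc*, the histamine-forming enzyme, was in replicate 3 at 1.90 times the mean of the others (adjusted p between replicate numbers = 0.112, edgeR's F test). *Kit* and *Hdc*, from a list of 12 mast cell markers, thus went in opposite directions, and no set rule picked them. The part of these differences in the members' levels was not tested. Whether a replicate number stands for a mouse, a culture, a transfection or a library preparation is not given in the sources used here, and these cannot be told apart.

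*Atf4*, the central transcription factor of the response, was the most abundant member. It is on chromosome 15 (80139372 to 80141745, plus strand, GRCm39). After Scrambled RNP it was at 397, 645, 725 and 530 CPM in replicates 1 to 4, and after *Zc3h12a* RNP at 378, 553, 830 and 486 CPM. Replicate 3 was highest and replicate 1 lowest in both groups, and the groups overlapped over almost their whole range. The fitted log2 fold change between RNPs was -0.057 (SE 0.092, adjusted p = 0.96, edgeR's quasi-likelihood test), and *Atf4* was lower in 3 of 4 pairs. Between replicate numbers the mean level had a 2.01-fold range (adjusted p = 0.00677, edgeR's F test), a call lost without replicate 1 and without replicate 3.

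*Ddit3* encodes CHOP, a transcription factor that is induced downstream of ATF4 and can promote cell death under prolonged stress. It is on chromosome 10 (127124268 to 127132163, plus strand), where the annotation overlaps *Mars1* and *Mbd6* on the other strand. Without a stated strand setting, reads of the shared stretches cannot be told apart. On the same strand the annotation holds the non-coding genes *Gm20492* and *Gm66222* and a further protein-coding entry named *Ddit3* (127126698 to 127129622). Counts are per symbol, so which *Ddit3* entry was counted is not known, which also limits its level per kb. *Ddit3* was at 37.2, 51.0, 34.5 and 30.5 CPM after Scrambled RNP and at 35.3, 58.5, 40.9 and 22.2 CPM after *Zc3h12a* RNP. Both samples of replicate 2 were highest and both of replicate 4 lowest, an order unlike that of *Atf4*. The log2 fold change was -0.017 (SE 0.12, adjusted p = 0.987, edgeR), with 2 pairs higher and 2 lower. Between replicate numbers *Ddit3* had a 2.08-fold range (adjusted p = 0.0182), a call lost with upper quartile normalization, with total counts alone and without replicate 2. Its mean in replicate 3 was 0.964 times the mean of the others.

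*Asns*, which encodes asparagine synthetase and is a classical ATF4 target, had the largest fold change between RNPs of the 9 tested members. It is on chromosome 6 (7671667 to 7728461, minus strand). It was at 11.8, 14.3, 41.8 and 8.28 CPM in Scrambled RNP samples 1 to 4 and at 14.3, 13.0, 57.8 and 17.7 CPM in *Zc3h12a* RNP samples. Both samples of replicate 3 stood well above the other 6, and the groups overlapped. Its log2 fold change was 0.42 with an SE of 0.18 and an unadjusted p of 0.0468 (edgeR), and its adjusted p was 0.796. The pairs differed by 0.27, -0.13, 0.47 and 1.09 on the log2 CPM scale, and in the exact two-sided sign-flip test 4 of 16 sign assignments gave as large a mean difference, where 2 of 16 is the least that 4 pairs allow. Without replicate 2, the single pair in which *Asns* was lower, its log2 fold change was 0.65 and its adjusted p 0.0254, which passes the thresholds in a fit that called 80 genes higher and 57 lower. Without replicate 4 it was 0.22 (adjusted p = 0.745), and without replicate 3 it was 0.35 (adjusted p = 0.996). The difference between replicate numbers was larger than this change: the mean of replicate 3 was 3.77 times the mean of the others. Over the 4 replicate numbers the adjusted p was 0.00309 (edgeR's F test).

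*Trib3*, a pseudokinase induced by ATF4 and CHOP that feeds back on ATF4, was the single member that was higher in all 4 pairs, as were 4.98% of all genes tested. It is on chromosome 2 (152179337 to 152191958, minus strand). Its level was 4.63, 2.90, 8.82 and 3.38 CPM after Scrambled RNP and 4.89, 3.68, 11.9 and 3.96 CPM after *Zc3h12a* RNP. The differences within pairs were small beside the distance of replicate 3 from the rest. Between RNPs the log2 fold change was 0.27 (SE 0.19, adjusted p = 0.96, edgeR), and 2 of 16 assignments in the exact sign-flip test gave as large a difference, the least the design allows. Without replicate 3 the log2 fold change was 0.16. Replicate 3 was at 2.66 times the mean of the other numbers. Over the 4 replicate numbers the adjusted p was 0.0103 (edgeR's F test).

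*Chac1*, which encodes a glutathione-degrading enzyme induced by ATF4, was barely detected outside replicate 3. It is on chromosome 2 (119180757 to 119184866, plus strand). The raw counts were 4, 9, 51 and 5 in Scrambled RNP samples 1 to 4 and 0, 0, 78 and 10 in *Zc3h12a* RNP samples. These correspond to 0.127, 0.300, 2.01 and 0.238 CPM and to 0, 0, 3.21 and 0.325 CPM, where a count of 0 allows up to 0.104 and 0.130 CPM (3 counts) in *Zc3h12a* RNP samples 1 and 2. Both replicate 3 samples were above the other 6, and the mean of replicate 3 was 15.8 times the mean of the other numbers. *Chac1* did not pass the low-count filter. In a fit with no filter its adjusted p was 1 between RNPs and 3.53e-05 between replicate numbers (edgeR). The F statistic behind the latter was 12.1. In the filtered fit an F of 12.2, that of *Ddit3*, gave an adjusted p of 0.0182, so the p values of the 2 fits cannot be compared.

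*Sesn2* encodes Sestrin2, a leucine sensor that restrains mTORC1. It is on chromosome 4 (132219335 to 132237815, minus strand). It was at 23.7, 42.2, 29.1 and 25.8 CPM after Scrambled RNP and 27.6, 39.3, 34.8 and 32.3 CPM after *Zc3h12a* RNP. As for *Ddit3*, both samples of replicate 2 were highest, and the spread was narrow, with a 1.59-fold range between replicate means. The log2 fold change between RNPs was 0.17 (SE 0.095, adjusted p = 0.927, edgeR), with 3 of 4 pairs higher, and it was 0.33 without replicate 2 and 0.089 without replicate 3. Between replicate numbers its adjusted p was 0.0288, and this call was lost in DESeq2, with RLE normalization, with no low-count filter, and without replicates 1, 2 or 3.

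Of the 10 genes, *Asns*, *Chac1* and *Trib3* are those whose promoter window holds the letters TGATGNAA, the core of the C/EBP-ATF response element through which ATF4 acts. The search covered both strands of the RefSeq promoter windows of GRCm38.p6, 300 bases each, from 250 before to 50 after the start site. All 10 members had a window, and 3 of them held a match, as did 1219 of 27025 genes in the table (4.51%). Of the related genes listed below that had a window, 6 of 17 other ATF4 target genes held a match. So did 5 of 13 cytosolic aminoacyl-tRNA synthetases, 2 of 10 amino acid transporters and 1 of 9 bZIP relatives of ATF4. Matches were held by 0 of 12 genes of eIF2 kinases and subunits, 0 of 15 one-carbon enzymes and 0 of 4 paralogs. A match was thus not particular to the members. The members' matches are printed 5′ to 3′ on the strand of the gene with the 8 letters in capitals.
Asns: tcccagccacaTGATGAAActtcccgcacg
Chac1: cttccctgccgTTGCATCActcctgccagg
Trib3: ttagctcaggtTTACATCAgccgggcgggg
The *Asns* match reads on the gene's strand and begins 23 bases before the start site (chr6:7693214-7693243, minus strand). The *Chac1* match reads on the opposite strand, 193 bases before the start (chr2:119351038-119351067, plus strand), and the *Trib3* match also reads on the opposite strand, 14 bases after the start (chr2:152344028-152344057, minus strand). These matches describe the letters alone; binding was not measured, and the absence of a match in the other 7 windows says nothing about the factor.

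The serine synthesis pathway turns the glycolytic intermediate 3-phosphoglycerate into serine in consecutive steps by PHGDH, PSAT1 and PSPH. *Phgdh*, the gene of the first enzyme, is on chromosome 3 (98220484 to 98255047, minus strand). It was at 7.61, 5.26, 14.5 and 2.24 CPM in Scrambled RNP samples and 6.83, 4.85, 19.8 and 5.75 CPM in *Zc3h12a* RNP samples. Replicate 3 was again highest in both groups, and Scrambled RNP sample 4 was the lowest of the 8. Its log2 fold change was 0.36 (SE 0.26, adjusted p = 0.96, edgeR), and the pairs differed by -0.15, -0.12, 0.45 and 1.33. Without replicate 4 the log2 fold change was 0.076. The mean of replicate 3 was 3.16 times that of the others, and the range between replicate numbers, 4.29-fold, was the widest of the tested members (adjusted p = 0.0131).

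*Psat1*, the gene of the second enzyme, is on chromosome 19 (15882039 to 15924701, minus strand). It was at 43.0, 40.2, 69.2 and 20.3 CPM after Scrambled RNP and at 38.0, 32.1, 88.5 and 37.2 CPM after *Zc3h12a* RNP. Its order of samples resembled that of *Phgdh*, with replicate 3 highest and Scrambled RNP sample 4 lowest. The log2 fold change was 0.17 (SE 0.19, adjusted p = 0.96, edgeR), with 2 pairs higher and 2 lower, and without replicate 4 it was -0.044. Replicate 3 was at 2.25 times the mean of the other numbers. Over the 4 replicate numbers the adjusted p was 0.0173 (edgeR's F test).

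*Psph*, the gene of the last enzyme, is on chromosome 5 (129841925 to 129864513, minus strand) and overlaps *Cct6a* on the other strand. It was at 10.8, 11.9, 12.5 and 10.2 CPM after Scrambled RNP and at 10.8, 11.4, 16.5 and 11.1 CPM after *Zc3h12a* RNP. Apart from *Zc3h12a* RNP sample 3, the samples were close together. Its log2 fold change was 0.11 (SE 0.11, adjusted p = 0.96, edgeR), and replicate 3 was at 1.31 times the mean of the others. The CPM of *Phgdh* relative to that of *Psph* was 1.16 and 1.20 in the replicate 3 samples and 0.219 to 0.704 in the other 6, so the 3 steps of the pathway did not vary by the same factor.

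*Mthfd2*, a mitochondrial enzyme of the folate cycle that uses the carbon unit released from serine, is on chromosome 6 (83282673 to 83302890, minus strand). It was at 80.6, 90.3, 131 and 64.9 CPM after Scrambled RNP and at 83.8, 78.1, 145 and 83.0 CPM after *Zc3h12a* RNP. Both samples of replicate 3 were above the other 6. The log2 fold change between RNPs was 0.085 (SE 0.10, adjusted p = 0.96, edgeR). The mean of replicate 3 was 1.72 times that of the others. Over the 4 replicate numbers the adjusted p was 0.0105 (edgeR's F test), a call lost without replicate 1 and without replicate 3.

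**Figure D2:**
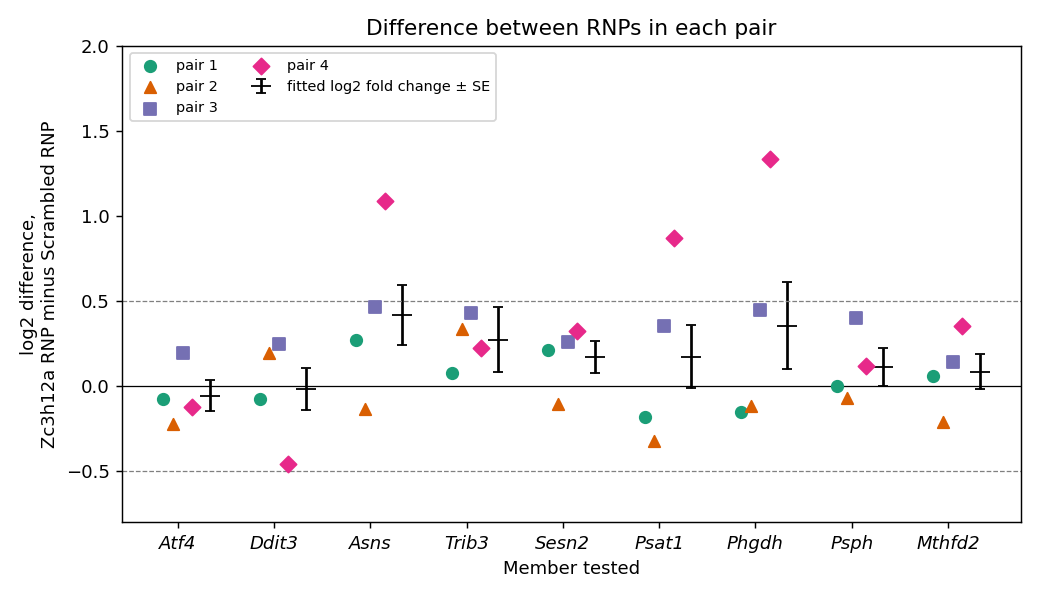
Difference between *Zc3h12a* RNP and Scrambled RNP samples of the same number on the log2 CPM scale (vertical axis) for the 9 tested genes (horizontal axis), with 1 symbol per pair and the fitted log2 fold change ± SE in black; dashed lines mark 0.5 in either direction. All 9 genes are above 0 in pair 3, and the differences of *Asns*, *Psat1* and *Phgdh* in pair 4, at 1.09, 0.87 and 1.33, lie far from the other pairs.

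The pairs differed among themselves in the direction of the members. In pair 3 all 9 tested members were higher after *Zc3h12a* RNP, where 50.9% of all genes were, with a median difference of 0.35 against 0.0076 for all genes. In pair 4, 7 members were higher (44.3% of all genes), with a median of 0.32. In pair 2 the count was 2 (51.2% of all genes) with a median of -0.12, and in pair 1 it was 5 (54.1%) with a median of 0.0011. With 1 sample per RNP in each pair, these directions have no replicate and no test.

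**Figure D3:**
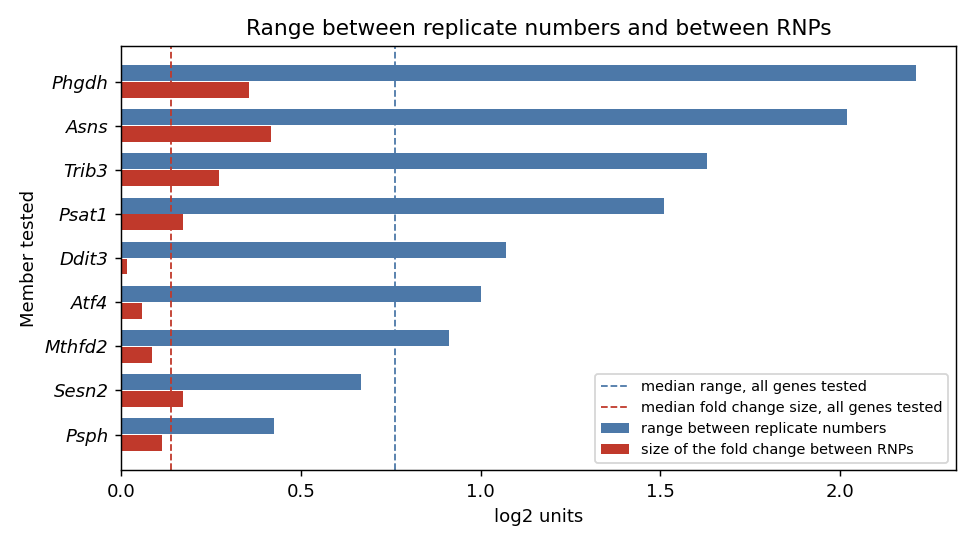
For each tested gene, the range between the highest and the lowest of the 4 replicate means of log2 CPM (blue bars) and the size of the fitted log2 fold change between RNPs (red bars), both in log2 units from 0; dashed lines mark the medians over all genes tested, 0.763 and 0.138. The blue bars run from 0.426 (*Psph*) to 2.21 (*Phgdh*) and the red bars from 0.0175 (*Ddit3*) to 0.417 (*Asns*); a range over 4 means is wider by construction than a difference of 2.

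Compared per length of the canonical transcript, *Atf4* stood above all other members, at 330 ± 82.0 CPM per kb in Scrambled RNP samples (SD, n = 4). *Mthfd2* (43.7 ± 13.5 CPM per kb) and *Ddit3* (39.1 ± 9.08) followed, with overlapping ranges, then *Psat1* (16.5 ± 7.67) and *Sesn2* (8.66 ± 2.38). *Psph* (4.68 ± 0.422), *Phgdh* (3.91 ± 2.75), *Asns* (3.88 ± 3.13), *Trib3* (2.36 ± 1.29) and *Chac1* (0.402 ± 0.539) formed the lower end. Of neighbours in this order, *Atf4* against *Mthfd2* and *Sesn2* against *Psph* had ranges over the 8 samples that did not overlap.

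Most members were highest in the 2 samples of replicate 3, but the order of the other samples differed among them. *Atf4* was lowest in replicate 1, whereas *Phgdh* was lowest in Scrambled RNP sample 4. The log2 CPM of *Asns* correlated with that of *Mthfd2* (Pearson's r = 0.982), *Psat1* (0.939), *Phgdh* (0.922), *Trib3* (0.911) and *Psph* (0.892), less with *Atf4* (0.726), and little with *Sesn2* (0.229) or *Ddit3* (0.00214). These are descriptions over n = 8 samples, in which all genes share the same libraries and normalization, and the 2 samples of replicate 3 weigh heavily in them. Outside the members, the genes most like their mean centred profile were *Itprip* (r = 0.980), *Mrpl42* (0.978), *Tars*, the threonyl-tRNA synthetase (0.972), *Hdac2* (0.970) and *1700097N02Rik* (0.956), over the same 8 samples. Among the 50 most alike of 9659 genes compared, 1 (*Tars*) belonged to the related gene lists described next. The share of these lists among all genes compared was not counted, so the 1 does not measure how alike the lists were.

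The 7 further lists of related genes held 0 genes called between RNPs in either direction. The 15 genes of eIF2 kinases, eIF2, eIF2B and phosphatase subunits had a median log2 fold change of 0.021. The largest rise was that of *Oma1*, the mitochondrial protease that relays stress to the kinase HRI, at 0.24 (SE 0.094, adjusted p = 0.756, higher in 4 of 4 pairs), and the largest fall that of *Eif2ak1*, the gene of HRI, at -0.10 (SE 0.073, adjusted p = 0.96). By replicate number, 10 of 15 genes differed, beside 28% of all genes, and in 2 of 15 both replicate 3 samples were the highest, beside 5.87% of all genes.

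Among the bZIP partners and relatives of ATF4, 7 of 9 tested genes differed between replicate numbers (beside 28% of all genes), and 4 had both replicate 3 samples above the other 6 (beside 5.87%). Their median log2 fold change between RNPs was -0.013. *Atf3*, a stress-induced repressor, was at 0.856, 8.73, 63.9 and 8.85 CPM after Scrambled RNP and at 0.485, 14.3, 46.3 and 23.2 CPM after *Zc3h12a* RNP. *Cebpb*, a dimerization partner of ATF4, was at 18.3, 29.7, 161 and 101 CPM and at 10.2, 35.8, 93.4 and 97.6 CPM. Both genes were lowest in replicate 1, but *Cebpb* was high in replicate 4 as well as replicate 3, which the members were not. The ranges between replicate means were 82.2-fold for *Atf3* and 8.95-fold for *Cebpb* (adjusted p = 0.00211 and 0.00192, edgeR's F test), and their log2 fold changes between RNPs were 0.39 (SE 0.32) and -0.34 (SE 0.19), with adjusted p = 0.96 and 0.927.

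Of the 18 other ATF4 target genes tested, 6 differed between replicate numbers (33.3%, beside 28% of all genes) and 7 had both replicate 3 samples on top (5.87% of all genes). Their median log2 fold change between RNPs was 0.062. *Gdf15*, named after its values were seen, is a secreted stress cytokine and was at 3.27, 1.40, 12.0 and 17.7 CPM after Scrambled RNP and 3.61, 2.08, 18.5 and 26.5 CPM after *Zc3h12a* RNP. It was thus highest in replicate 4, not 3, and its log2 fold change between RNPs was 0.49 (SE 0.13, adjusted p = 0.518, edgeR). By size, the extremes of the list were *Bcat1*, a branched-chain aminotransferase, at 0.71 (SE 0.78), and *Ddit4*, an mTORC1 inhibitor, at -0.33 (SE 0.13), with adjusted p = 0.96 and 0.756. The pairs of *Bcat1* differed by 0.86, 3.21, 0.38 and -1.51, with 9 counts in Scrambled RNP sample 2.

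The cytosolic aminoacyl-tRNA synthetases charge tRNAs with their amino acids, and many are ATF4 targets. Of 20, 13 differed between replicate numbers (65% against 28% of all genes), and 11 had both replicate 3 samples above the other 6, where 5.87% of all genes did. *Sars*, the seryl-tRNA synthetase, was at 148, 141, 203 and 118 CPM after Scrambled RNP and at 137, 116, 182 and 112 CPM after *Zc3h12a* RNP. All 4 pairs were lower, and the fitted log2 change was -0.16 (SE 0.077, adjusted p = 0.875), the largest fall of the list. The largest rise was that of *Lars*, the leucyl-tRNA synthetase, at 0.21 (SE 0.089, adjusted p = 0.811), and the list's median was 0.10, which fell to -0.0045 without replicate 4.

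**Figure D4:**
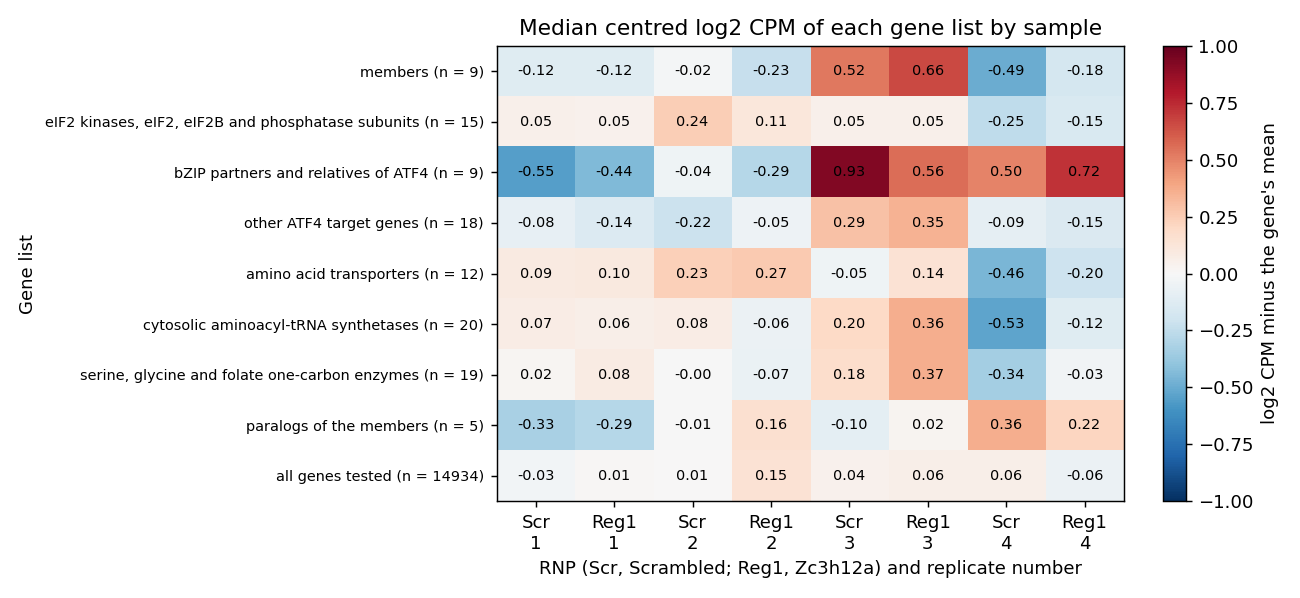
Median over each gene list (rows, with the number of genes tested) of log2 CPM minus the gene's mean over the 8 samples (colour and printed value, log2 units) in each sample (columns: Scr, Scrambled RNP; Reg1, *Zc3h12a* RNP; replicate number). The members are at 0.52 and 0.66 in the 2 samples of replicate 3 and at or below -0.02 in the other 6, while all genes tested lie between -0.06 and 0.15.

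The amino acid transporters had 7 of 12 tested genes that differed between replicate numbers (28% of all genes) and 2 whose 2 replicate 3 samples were on top (5.87% of all genes). Their median log2 fold change between RNPs was 0.15. Their extremes were *Slc7a11*, the cystine importer, at 0.44 (SE 0.56), and *Slc7a6*, a cationic and neutral amino acid exchanger, at -0.084 (SE 0.13), both with adjusted p = 0.96. Of the 19 serine, glycine and folate one-carbon enzymes outside the members, 4 differed between replicate numbers (21.1%, beside 28% of all genes), while 5 had both replicate 3 samples on top (5.87% of all genes) and 11 had their highest mean in replicate 3 (27.6%). In this list *Aldh1l1*, a cytosolic folate enzyme, was lower in every pair, at -0.35 (SE 0.077, adjusted p = 0.435, edgeR). Among its genes with a mean of at least 50 counts, *Gldc*, of the glycine cleavage system, had the largest rise at 0.827 (SE 0.86, adjusted p = 0.96, edgeR). Its pairs differed by 0.63, 3.84, 0.57 and -1.35, with 5 counts in Scrambled RNP sample 2. *Aldh1l2*, with a mean of 41.4 counts, was at 0.833 (SE 0.52).

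Among 5 paralogs of the members, 3 differed between replicate numbers, beside 28% of all genes. *Trib2*, a paralog of *Trib3*, was at 33.9, 32.5, 19.8 and 29.8 CPM after Scrambled RNP and at 17.4, 28.5, 13.8 and 14.6 CPM after *Zc3h12a* RNP. It was lower in 4 of 4 pairs, as 8.54% of all genes were, whereas *Trib3* was higher in all 4. The fitted log2 change was -0.68 (SE 0.15, unadjusted p = 0.0021, adjusted p = 0.424, edgeR). It passed the thresholds in DESeq2 (8 genes higher and 52 lower in all), without replicate 2 (80 and 57), with no low-count filter (9 and 31), and with limma-trend on values corrected by removeBatchEffect and no block in the fit (34 and 79). With limma-trend and the block it did not. *Sesn3*, a paralog of *Sesn2*, had the largest rise of the paralogs, at 0.22 (SE 0.11, adjusted p = 0.868), and was higher in 4 of 4 pairs.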

How the data were processed

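RNA of 8 BMMC samples was sequenced from poly(A) libraries as paired reads of 50 bases. The authors deposited raw read counts per gene symbol; the submitters' processing notes name FastQC 0.11.9, HISAT2 2.2.1, featureCounts 2.0.1 and GRCm39. Handling of strand and of reads with several matches is not given in the sources used here. Although removeBatchEffect is named in the methods, the deposited values are whole numbers.

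Counts were tested with edgeR 4.0.16 (R 4.3.3): TMM, filterByExpr by group, replicate number plus RNP, a call at a log2 fold change beyond 0.5 and Benjamini-Hochberg adjusted p at or under 0.05 over all genes tested. The SE is |log2 fold change| over the root of the F statistic. CPM are TMM-normalized; log2 CPM used a prior count of 2. Alternatives were no block, DESeq2 1.42.0, limma-trend (limma 3.58.1), removeBatchEffect, other normalizations and filters, and leaving out each replicate. Gene positions and canonical transcript lengths come from GENCODE's GRCm39 annotation. Plots used Python 3.11.15 and matplotlib 3.10.9.

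Pairing by number rests on the study's 4 mice and 4 samples per RNP; no source states it. After subtracting group means, same-numbered samples correlated at 0.595, 0.0752, 0.624 and 0.0414 for numbers 1 to 4 over all genes tested (different numbers, up to 0.398, above numbers 2 and 4), and at 0.756, 0.717, 0.728 and 0.719 over 9668 genes with a mean log2 CPM above 2 (different numbers, at most 0.137). On simulated counts with dispersion 0.04, 74.6% of 197 genes with a simulated log2 change of 1 between RNPs were recovered (14774 genes run). The largest change of a member was smaller, at 0.42. The simulation gave a replicate effect to 200 genes, where 4181 genes differed by replicate number in the data. The recovered share therefore does not tell how often changes of the members' size would be called.

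The members and lists were chosen with earlier results of these data known. Named genes are the 10 members, the largest rise and fall of each related list among genes with a mean of at least 50 counts, any gene called, the 5 genes most alike the members' profile, and markers; *Gdf15* was added after its values were seen.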

Additional observations from a re-analysis of the deposited data

Results flagged for a closer look

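In each group of 4 samples, the gap between the highest or lowest sample and its nearest neighbour was divided by the group's range and compared with Dixon's critical value for 4 samples. Of 20 groups (10 genes, 2 RNPs), 8 passed, where chance alone flags about 1 in 20. All 8 were a high value in replicate 3. After *Zc3h12a* RNP the ratios were 0.896 for *Asns*, 0.899 for *Chac1*, 0.854 for *Trib3*, 0.895 for *Psat1*, 0.868 for *Phgdh*, 0.906 for *Psph* and 0.914 for *Mthfd2*. After Scrambled RNP *Chac1* passed, at 0.908. The genes vary together and the samples are the same in each, so these are not 8 separate events. *Ddit3*, *Sesn2* and *Atf4* had no such sample in either group.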

How the results depend on the processing

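With no replicate block, 0 members were called and their median log2 fold change was 0.15; the block changed no call of a member. The number of genes called higher and lower was 8 and 52 in DESeq2, 34 and 79 after removeBatchEffect and 9 and 31 with no low-count filter. The count of lower genes was 1 in limma-trend, 1 with RLE normalization and 3 with at least 10 counts in every sample. Of the paralogs, 1 was called in DESeq2, after removeBatchEffect and with no filter. RLE normalization gave 2364 genes that differed by replicate number, against 4181. The *Ddit3* log2 fold change turned to 0.032 with no replicate block, 0.052 with total count alone and 0.012 with no filter, and that of *Atf4* to 0.011 with total count alone.

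Leaving out each replicate gave 0 to 80 genes higher, 0 to 57 lower, 0 to 1 members and 0 to 1 paralogs called, each highest without replicate 2, and 1443 to 2878 genes and 1 to 8 members that differed by replicate number. Log2 fold changes then ran from -0.19 to 0.060 for *Atf4*, -0.16 to 0.12 for *Ddit3*, 0.22 to 0.65 for *Asns*, -0.044 to 0.40 for *Psat1*, -0.038 to 0.24 for *Psph* and -0.0028 to 0.24 for *Mthfd2*. Those of *Trib3*, *Sesn2* and *Phgdh* ran from 0.16 to 0.38, 0.089 to 0.33 and 0.076 to 0.58. The medians ran from 0.057 to 0.31 for the members, -0.14 to 0.15 for the paralogs, -0.073 to 0.16 for the other ATF4 targets, -0.028 to 0.12 for the eIF2 list, -0.023 to 0.095 for the bZIP list, 0.042 to 0.28 for the transporters, -0.0045 to 0.21 for the synthetases and 0.12 to 0.28 for the one-carbon enzymes. The causes were not tested. The SEs of the members' log2 fold changes, 0.092 to 0.26 over 4 pairs, limit which changes could be called, and *Chac1* rests on few reads.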
